A study of Mus musculus with 6 samples.

Results

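Collagen genes were described in kidney RNA over the day. Their members were all genes of the deposited table whose symbol has the form Col, type number, a, chain number, and 44 of the 51803 symbols in the table met this rule. The samples were kidneys of 8-week-old male mice of the inbred strain BALB/c, held in a light/dark cycle, and 1 kidney library stood for each of ZT0, ZT4, ZT8, ZT12, ZT16 or ZT20 (zeitgeber time, in hours after lights on). The labels name no genetic change or treatment and do not say how many animals a library holds. No time therefore has a spread between animals, and the test is of the course over the day.

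Collagens are matrix proteins built from 3 chains wound into a triple helix of repeated glycine triplets. Type IV chains form the sheet-like network of basement membranes, which in the kidney surrounds every tubule and, in the glomerulus, is the filter between capillaries and podocytes. There the network of Col4a3, Col4a4 and Col4a5 replaces the earlier network of Col4a1 and Col4a2, and mutations in Col4a3, Col4a4 or Col4a5 cause Alport syndrome. Fibrillar chains (types I, II, III, V, XI, XXIV and XXVII) assemble into fibres such as those of the interstitium, and types I and III accumulate in kidney fibrosis.

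Levels are given as FPKM (a fragment count divided by transcript length and by library size), summed over all transcripts of a symbol, so they can be compared between genes per length. The number of reads behind them is unknown. A 24 h cosine curve was fitted to log2(FPKM + 1) over the 6 libraries. Its amplitude is the log2 distance from mean to peak. The SE rests on a variance that limma draws from the gene's own scatter and from the trend over all genes tested. By ordinary least squares, on the gene's own scatter only, the SE of Col4a4 was 0.028 in place of 0.044. That of Col4a1 was 0.133 in place of 0.099. Of the 44 collagen genes, 18 had a mean of at least 1 FPKM and were tested among 12709 genes. The other 26 were not tested and are given by their levels. The kidney markers Lrp2, Slc34a1, Umod and Aqp2 had means of 159.8, 985, 933 and 139.6 FPKM. Of the cartilage and bone markers, Acan and Bglap were listed at 0 in all 6 libraries, and Sox9 lay between 0.0812 FPKM (ZT16) and 0.157 FPKM (ZT0). Each library summed to 534448 to 577493 FPKM, and transcripts of the mitochondrial genome took 22.2% of it at ZT20 and 28.6% at ZT4.

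The type IV genes lie in head-to-head pairs. Start regions are shown for the pairs in which both genes had a mean of at least 1 FPKM. That of Col27a1, called like Col4a3 at adjusted p under 0.05 (limma), is also shown. On GRCm38, Col4a4 (ENSMUSG00000067158) is read from the reverse strand (chromosome 1, 82448423 to 82586849) and Col4a3 (ENSMUSG00000079465) from the forward strand (82586921 to 82722059), which leaves 71 bases between them. Col4a1 (reverse strand, chromosome 8, 11198423 to 11312826) and Col4a2 (forward strand, 11312805 to 11449287) overlap at their starts. Col4a6 (reverse strand, chromosome X, 141165403 to 141474076) and Col4a5 (forward strand, 141475385 to 141689234) are 1308 bases apart. Col27a1 (ENSMUSG00000045672) is a forward-strand gene (chromosome 4, 63214004 to 63334991) and holds the microRNA gene Mir455. The sequences below are RefSeq windows on GRCm38.p6, each of 300 bases (250 before the start of the gene to 50 after it), read 5′ to 3′ on the strand of the gene. In the Col4a4 window (chr1:82586800-82587099, reverse strand) capitals mark the 71 bases between Col4a4 and Col4a3. In the windows of Col4a2 (chr8:11312555-11312854, forward strand), which also holds the start of Col4a1, and of Col27a1, at a RefSeq start that lies inside the gene span just given (chr4:63215162-63215461, forward strand) capitals mark matches to GGGCGG or CCAAT on either strand.
Col4a4: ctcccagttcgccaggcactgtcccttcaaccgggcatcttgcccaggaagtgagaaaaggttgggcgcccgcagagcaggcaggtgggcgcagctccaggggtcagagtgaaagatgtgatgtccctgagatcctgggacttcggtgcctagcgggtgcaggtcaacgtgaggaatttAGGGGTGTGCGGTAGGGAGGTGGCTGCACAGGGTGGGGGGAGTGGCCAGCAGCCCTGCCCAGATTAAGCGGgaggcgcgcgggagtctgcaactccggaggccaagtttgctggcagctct
Col4a2: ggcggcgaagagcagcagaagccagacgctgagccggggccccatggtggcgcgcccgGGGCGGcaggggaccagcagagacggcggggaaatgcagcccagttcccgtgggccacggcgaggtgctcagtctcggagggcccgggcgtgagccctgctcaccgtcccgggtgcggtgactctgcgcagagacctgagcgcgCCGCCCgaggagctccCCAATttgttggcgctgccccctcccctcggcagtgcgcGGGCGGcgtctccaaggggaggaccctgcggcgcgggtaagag
Col27a1: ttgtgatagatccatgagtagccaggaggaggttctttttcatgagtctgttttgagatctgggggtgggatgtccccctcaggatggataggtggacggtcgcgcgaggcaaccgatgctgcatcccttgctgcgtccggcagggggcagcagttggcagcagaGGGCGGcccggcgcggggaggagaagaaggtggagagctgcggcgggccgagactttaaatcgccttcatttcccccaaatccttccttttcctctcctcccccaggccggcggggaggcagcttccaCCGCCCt

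RefSeq windows were found for 35 of the 44 genes (38 windows), and for 13 of the 18 tested genes (15 windows). Col4a3 and Col1a1 were among the genes without a window. The windows were searched on both strands for 5 motifs, none of which overlap in the sequences printed. The clock-related E-box CACGTG was in 0 of 38 collagen windows, against 7.15% of all 32851 windows, and the D-box spelling TTATGTAA in 0 of 38, against 0.938%. The GC box GGGCGG was in 23 of 38, against 35.7% of all windows. The share of G and C letters had a median of 52.7% over all windows. It was 63.3%, 73.7% and 61.7% in the Col4a4, Col4a2 and Col27a1 windows, and its part in the GC box count was not tested. CCAAT was in 13 of 38, against 37.4%, and TATAAA in 5 of 38, against 13.6%. The Col4a4 window held none of the 5 motifs, the Col4a2 window 3 GC boxes and 1 CCAAT box, and the Col27a1 window 2 GC boxes. The absence of a match says only that these letters are not in the window.

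Basement membrane chains made up most of the collagen message. The 6 Col4a genes summed to 112 FPKM at ZT0, 124 at ZT4, 87.7 at ZT8, 73.7 at ZT12, 82.6 at ZT16 and 103 at ZT20. This was 55.8% (ZT16) to 65.97% (ZT4) of the FPKM of all 44 genes. The 11 fibrillar genes summed to 20.1 FPKM (ZT8) to 27.6 FPKM (ZT20), the 2 multiplexin genes (Col15a1 and Col18a1, whose basement membrane proteins carry glycosaminoglycans) to 18.3 and 27.9 FPKM at ZT12 and ZT20, and the 6 type VI genes to 7.27 and 11.5 FPKM at ZT12 and ZT4. All 44 genes together reached 188 FPKM at ZT4 against 128 FPKM at ZT12, the lowest library. In whole kidney RNA, fewer cells of a type and less RNA per cell cannot be told apart.

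Of the 18 collagen genes tested, 2 passed the 24 h test at adjusted p under 0.05 (limma, moderated F test, Benjamini-Hochberg over 12709 genes), against 0.283% of all genes tested (36 genes). These were Col4a3, with a fitted peak shortly after lights on, and Col27a1, highest in the ZT16 library. At an unadjusted p under 0.05 there were 8 of 18 (44.4%), against 19.1% of all genes tested. The 8 were Col4a2, Col4a3 and Col4a4 of type IV, Col3a1 and Col27a1 among the fibrillar genes, Col6a6, and the multiplexins Col15a1 and Col18a1. The median amplitude over the 18 genes was 0.28, against 0.13 over all genes tested. A fitted amplitude is never negative, also without a rhythm, and the 18 genes were not matched to the others by level. Of the exact permutation tests, 4 of 18 gave p under 0.05 (Col4a3, Col4a4, Col6a6 and Col27a1), against 8.32% of all genes tested. A fitted peak between ZT21 and ZT3 was found for 11 of 18, against 18.8% of all genes tested. In the ZT12 library, 11 of the 18 genes (61.1%) had their lowest level, against 11.4% of all genes tested. In the ZT20 library 8 of 18 had their highest level (23.3% of all genes) and in the ZT4 library 7 of 18 (16.9% of all genes). Without the ZT12 library the count at unadjusted p under 0.05 was 5 of 18 in place of 8, against 15.1% of all genes tested in that fit.

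**Figure D1:**
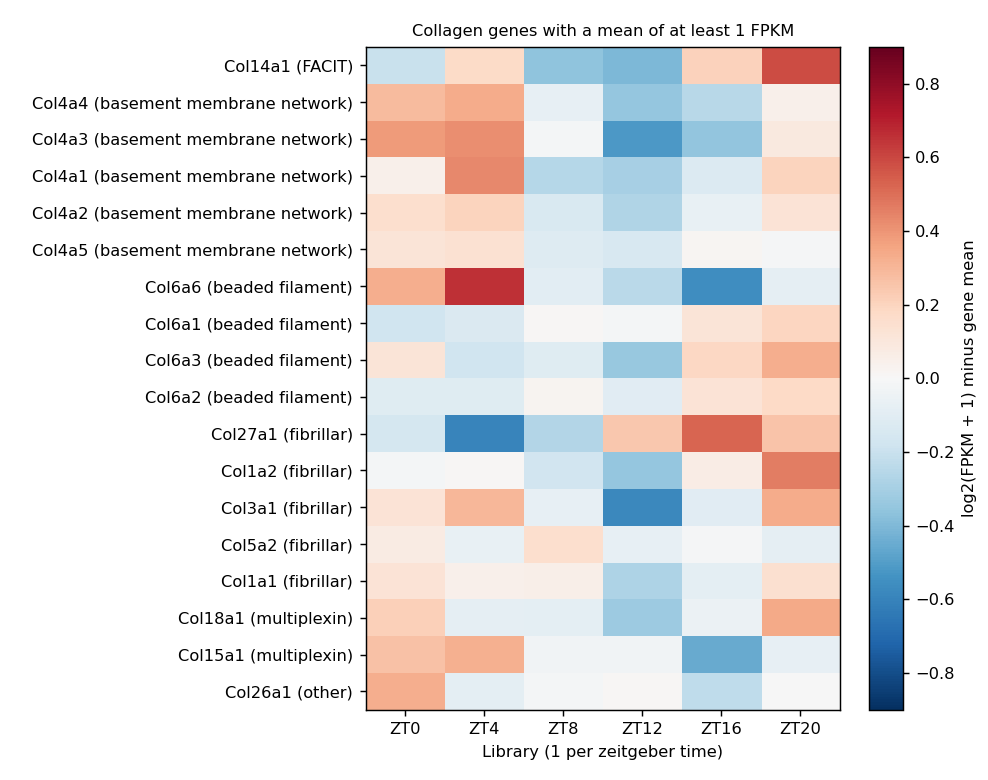
Deviation of log2(FPKM + 1) from the gene mean for the 18 tested collagen genes (rows, with their class) in the 6 libraries (columns). The 5 type IV rows are above their mean at ZT4 and below it at ZT12, and Col27a1 is lowest at ZT4 and highest at ZT16.

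Col4a3, which encodes the α3 chain of the glomerular network and the antigen of Goodpasture disease, stood at 33.3 FPKM at ZT0, 34.3 at ZT4, 25.02 at ZT8, 17.4 at ZT12, 19.6 at ZT16 and 27.002 at ZT20. It was high in the ZT0 and ZT4 libraries and low at ZT12 and ZT16. Its fitted amplitude was 0.49 ± 0.05 (SE, n = 6 libraries), with a peak at ZT1.56 ± 0.378 h (limma adjusted p = 0.0485, exact permutation p = 0.0333 over 60 circular orders of the libraries, of which 0.0167 is the smallest possible). Its partner Col4a4 stood at 32.8 FPKM at ZT0, 34.03 at ZT4, 25.4 at ZT8, 20.8 at ZT12, 22.4 at ZT16 and 27.6 at ZT20. The order of its 6 libraries was the same as for Col4a3, with a fitted amplitude of 0.35 ± 0.04 and its peak at ZT1.49 (limma adjusted p = 0.0729, unadjusted p = 0.000471, exact permutation p = 0.0333). The ratio of Col4a3 to Col4a4 lay from 0.835 to 1.02 in the 6 libraries, with a mean log2 ratio of -0.08 ± 0.12 (SD, n = 6), and its SD was below those of log2 Col4a3 (0.40) and log2 Col4a4 (0.29). The long coding transcript held 96.1% of the FPKM of Col4a3 and 93.7% of that of Col4a4.

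The adjusted call of Col4a3, like that of Col27a1, was not reached when any of the 6 libraries was left out, nor with the most abundant transcript in place of the sum, with no filter, without variance trend or by ordinary least squares (adjusted p up to 0.2903 for Col4a3 and 0.263 for Col27a1). In these and the other alternatives, 14 in all, the unadjusted p of Col4a3 stayed between 9.19e-05 and 0.00271 and its amplitude between 0.44 and 0.53.

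Col4a5 encodes the α5 chain, the third partner of the glomerular network, from the X chromosome. It stood at 5.34 FPKM at ZT0, 5.46 at ZT4, 4.42 at ZT8, 4.296 at ZT12, 4.94 at ZT16 and 4.83 at ZT20, below Col4a3 and Col4a4 in every library. Its amplitude was 0.12 ± 0.06 with a fitted peak at ZT0.115, and it did not pass (limma adjusted p = 0.435, unadjusted p = 0.189). The ratio of Col4a3 to Col4a5 lay from 3.97 to 6.29 (mean log2 ratio 2.38 ± 0.30, SD, n = 6), highest at ZT4 and lowest at ZT16, and whether the amplitudes of both genes differ was not tested. A coding transcript of 3511 bases held 49.4% of Col4a5 and the long one of 6536 bases 47.8%. Col4a6, its head-to-head neighbour, which encodes a chain of the basement membranes of smooth muscle and Bowman's capsule, was listed at 0.0205 FPKM at ZT0, 0.00756 at ZT4, 0.01101 at ZT8, 0.0183 at ZT12, 0.0111 at ZT16 and 0 at ZT20. It was near 0 in every library.

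Col4a1 and Col4a2 encode the chains of the network found in nearly all basement membranes. Col4a1 stood at 26.5 FPKM at ZT0, 35.1 at ZT4, 21.3 at ZT8, 20.7 at ZT12, 23.4 at ZT16 and 29.7 at ZT20. The ZT4 library stood highest, and the ZT8 and ZT12 libraries lowest. Its amplitude was 0.29 ± 0.10 and it did not pass (limma adjusted p = 0.293, unadjusted p = 0.0697). Its unadjusted p was 0.00851 without the ZT0 library and 0.0121 without the ZT4 library, and it was 0.0224 with the most abundant transcript in place of the sum (fitted peak ZT23.7). Part of the ZT4 value came from a short coding transcript of 1170 bases, at 9.403 FPKM at ZT4 and 2.01 FPKM at ZT8. The long transcript alone lay between 14.97 FPKM at ZT12 and 22.6 FPKM at ZT20. Col4a2 stood at 14.4 FPKM at ZT0, 14.9 at ZT4, 11.6 at ZT8, 10.5 at ZT12, 12.2 at ZT16 and 14.1 at ZT20. It too was highest at ZT4 and lowest at ZT12, with an amplitude of 0.23 ± 0.05 and a fitted peak at ZT0.0304 (limma adjusted p = 0.175, unadjusted p = 0.0118, exact permutation p = 0.0667). Without the ZT12 library its unadjusted p was 0.0948. The ratio of Col4a1 to Col4a2 lay from 1.83 to 2.35 (mean log2 ratio 1.00 ± 0.14, SD, n = 6).

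**Figure D2:**
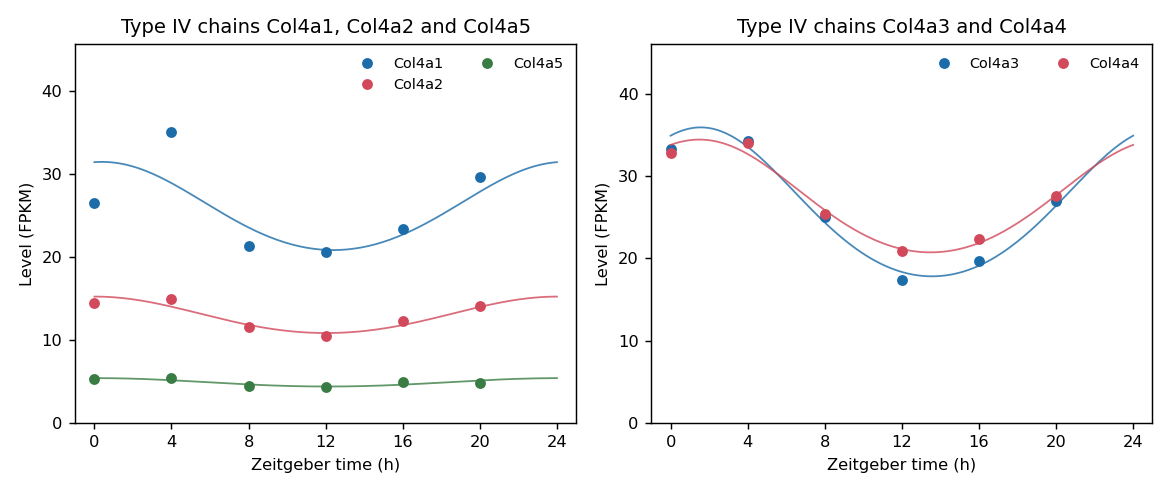
Level in FPKM against zeitgeber time for Col4a1, Col4a2 and Col4a5 (left) and for Col4a3 and Col4a4 (right), with 1 point per library and the fitted 24 h curve as a line. Summed over transcripts, all 5 genes are highest at ZT4 and lowest at ZT12, and Col4a3 and Col4a4 nearly coincide from ZT0 to ZT8.

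All 5 type IV genes tested were highest in the ZT4 library and lowest in the ZT12 library, and their fitted peaks lay between ZT0.0304 and ZT1.56. By the most abundant transcript of each gene in place of the sum, all 5 were again lowest at ZT12, but only Col4a2 and Col4a3 were highest at ZT4. Col4a4 was then at 31.1 FPKM at ZT0 against 30.7 FPKM at ZT4, Col4a5 at 2.73 against 2.61 FPKM, and Col4a1 was highest at ZT20. The long Col4a5 transcript of 6536 bases, with a nearly equal share, was highest at ZT4 (2.71 FPKM). It was lowest at ZT8 (2.04 FPKM), with 2.29 FPKM at ZT12. The median over the 5 genes of log2(FPKM + 1) minus the gene mean was 0.15 at ZT0, 0.34 at ZT4, -0.12 at ZT8, -0.30 at ZT12, -0.13 at ZT16 and 0.09 at ZT20, while the median over all genes tested lay between -0.03 and 0.02. Podocytes make the Col4a3, Col4a4 and Col4a5 chains of the glomerulus. The 8 podocyte markers were all detected and highest at ZT20, and 7 of 8 were lowest at ZT12. Their summed level ran from 35.1 FPKM at ZT12 to 96.3 FPKM at ZT20, with a median deviation of 0.03 at ZT0, -0.20 at ZT4, -0.26 at ZT8, -0.50 at ZT12, 0.32 at ZT16 and 0.70 at ZT20. The type IV chains thus shared the low ZT12 library with these markers, while at ZT4 they stood above their mean and the markers below theirs. Endothelial markers were likewise highest at ZT20 (8 of 8), with a summed level between 67.4 and 129 FPKM. Markers of the proximal tubule deviated by 0.05 at ZT0, 0.17 at ZT4, 0.02 at ZT8, -0.07 at ZT12, -0.10 at ZT16 and -0.09 at ZT20, with 4 of 6 highest at ZT4 and 2 of 6 lowest at ZT12. Their summed level ran from 1725 FPKM at ZT12 to 1991 FPKM at ZT4, the same lowest and highest libraries as for the type IV sum. The part of these markers' differences in the type IV time course was not tested.

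**Figure D3:**
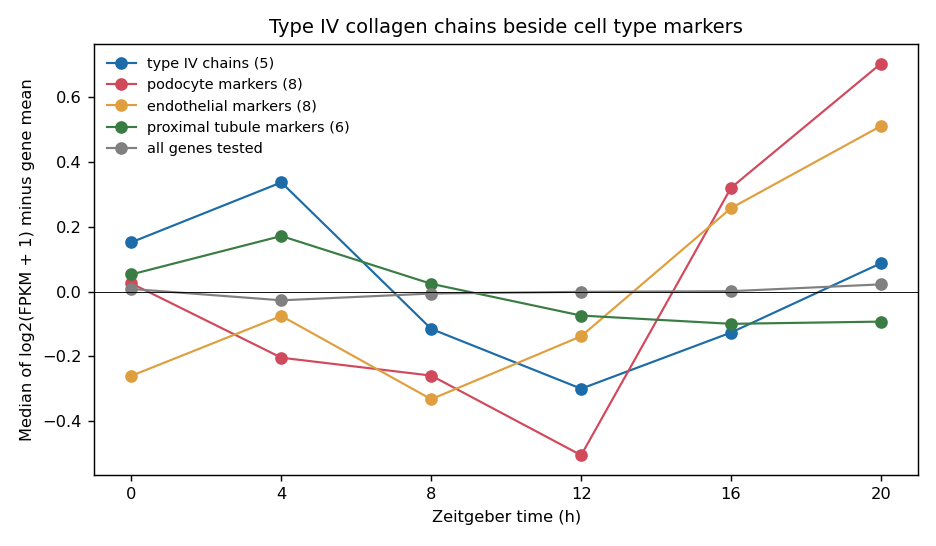
Median over the genes of a list of log2(FPKM + 1) minus the gene mean, against zeitgeber time (1 library per time), for the 5 type IV genes tested, podocyte, endothelial and proximal tubule markers, and all genes tested. The podocyte and endothelial lines are highest at ZT20, and the type IV line is highest at ZT4.

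Among the fibrillar genes, Col27a1 had the highest level. It encodes a fibrillar chain known from developing cartilage. It stood at 9.26 FPKM at ZT0, 6.59 at ZT4, 8.52 at ZT8, 12.5 at ZT12, 15.4 at ZT16 and 12.7 at ZT20. The levels at ZT12, ZT16 and ZT20 were all above those at ZT0, ZT4 and ZT8. The amplitude was 0.53 ± 0.05 with a peak at ZT16.3 ± 0.365 h (limma adjusted p = 0.0423, exact permutation p = 0.0167, the smallest possible and reached by 4.02% of all genes tested). A share of 50.4% of its FPKM came from the coding transcript of 7612 bases, while a non-coding transcript of 1485 bases and 2 exons held 31.05% and a transcript annotated for nonsense-mediated decay 13.3%. Each of these 3 was lowest at ZT4 and highest at ZT16, at 3.81 and 7.26, 1.82 and 5.09, and 0.626 and 2.18 FPKM. These transcripts share sequence, so their levels are not independent. With the coding transcript alone the amplitude was 0.38. The unadjusted p stayed between 7.5e-05 and 0.00189 in 14 alternatives. Haemoglobin transcripts (Hbb-bs, Hba-a1 and Hbb-bt), the blood markers, summed to 115 FPKM at ZT8 and 297 FPKM at ZT16, the library highest for Col27a1. Of these 3 genes, 2 passed at adjusted p under 0.05 (limma). The collecting duct marker Aqp2, a water channel singled out after its values were seen, had its lowest and highest levels in the same libraries as Col27a1, 82.3 FPKM at ZT4 and 181 FPKM at ZT16 (amplitude 0.59, limma adjusted p = 0.0647). Of the other collecting duct markers, Aqp3 was lowest at ZT20 (68.2 FPKM) and highest at ZT12 (94.3 FPKM). Atp6v1g3 was lowest at ZT4 (12.4 FPKM) and highest at ZT12 (19.2 FPKM). The 3 collecting duct markers (Aqp2, Aqp3 and Atp6v1g3) summed to 169.6 FPKM at ZT4, the lowest library, and to 286 FPKM at ZT12, the highest. The part of the blood and collecting duct markers in the course of Col27a1 was not tested. The ratio of Col27a1 to Col4a3 ran from 0.192 at ZT4 to 0.786 at ZT16.

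The chains of the interstitial fibres were lower. Col1a2, the α2 chain of type I, stood at 3.68 FPKM at ZT0, 3.78 at ZT4, 3.21 at ZT8, 2.73 at ZT12, 3.96 at ZT16 and 5.53 at ZT20. Col1a1, the α1 chain, stood at 1.28 FPKM at ZT0, 1.16 at ZT4, 1.18 at ZT8, 0.732 at ZT12, 0.9701 at ZT16 and 1.31 at ZT20. Both were lowest at ZT12 and highest at ZT20, and neither passed (limma adjusted p = 0.282 and 0.456, amplitudes 0.28 ± 0.10 and 0.17 ± 0.08). Without the ZT0 library the unadjusted p of Col1a2 was 0.00887. The ratio of Col1a1 to Col1a2 lay from 0.237 to 0.366 (mean log2 ratio -1.78 ± 0.26, SD, n = 6), so Col1a1 was below Col1a2 in all 6 libraries. Col3a1, the single chain of type III, stood at 3.76 FPKM at ZT0, 4.39 at ZT4, 3.17 at ZT8, 1.93 at ZT12, 3.08 at ZT16 and 4.52 at ZT20. It was lowest at ZT12 and high at ZT4 and ZT20, with an amplitude of 0.37 ± 0.11 and a fitted peak at ZT23.99 (limma adjusted p = 0.235, unadjusted p = 0.0346, exact permutation p = 0.167). Its unadjusted p was under 0.05 in 6 of 13 alternatives, and it was 0.0724, 0.238, 0.0559 and 0.0655 without the ZT4, ZT12, ZT16 and ZT20 libraries. Col5a2, a chain of the type V collagen that starts fibrils, stood at 1.98 FPKM at ZT0, 1.71 at ZT4, 2.14 at ZT8, 1.698 at ZT12, 1.81 at ZT16 and 1.68 at ZT20. It had the smallest amplitude of the 18 genes, 0.05 ± 0.08 (limma adjusted p = 0.894). Its neighbour Col3a1 lies 24614 bases away, and the genes end towards each other.

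**Figure D4:**
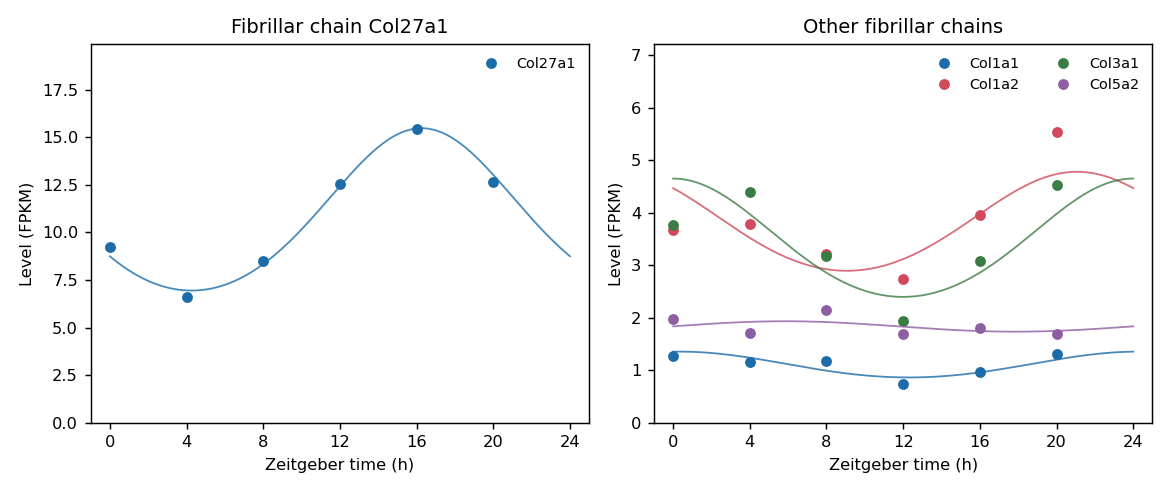
Level in FPKM against zeitgeber time for Col27a1 (left) and for Col1a1, Col1a2, Col3a1 and Col5a2 (right), with 1 point per library and the fitted 24 h curve as a line. Col27a1 runs from 6.59 FPKM at ZT4 to 15.4 FPKM at ZT16, while Col1a1, Col1a2 and Col3a1 are lowest at ZT12.

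The other 6 fibrillar genes had means under 1 FPKM. Col24a1 had a mean of 0.729 FPKM, lying between 0.294 FPKM (ZT12) and 1.21 FPKM (ZT4), and of its FPKM 49.99% came from a transcript with a retained intron. Col5a1, the partner of Col5a2, lay between 0.316 FPKM (ZT12) and 0.634 FPKM (ZT20), and Col5a3 between 0.269 FPKM (ZT16) and 0.548 FPKM (ZT4). The ratio of Col5a1 to Col5a2 lay from 0.169 to 0.376 (mean log2 ratio -2.12 ± 0.41, SD, n = 6). Col11a1 and Col11a2 had means of 0.149 and 0.205 FPKM. Col2a1, the main collagen of cartilage, had a mean of 0.00116 FPKM and was listed at 0 in 4 of 6 libraries.

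Type VI collagen forms beaded filaments next to basement membranes, and its classical chains are encoded by Col6a1, Col6a2 and Col6a3. Col6a6 encodes a chain that can take the place of the Col6a3 chain and had the highest level of the class. It stood at 6.15 FPKM at ZT0, 7.97 at ZT4, 4.34 at ZT8, 3.81 at ZT12, 2.87 at ZT16 and 4.38 at ZT20. It was highest at ZT4 and lowest at ZT16, with an amplitude of 0.53 ± 0.09 and its peak at ZT2.75 (limma adjusted p = 0.111, unadjusted p = 0.00221, exact permutation p = 0.0333). Its unadjusted p was under 0.05 in all 13 alternatives that tested it. The classical chains were lower and were highest in another library. Col6a1 stood at 1.26 FPKM at ZT0, 1.34 at ZT4, 1.58 at ZT8, 1.53 at ZT12, 1.77 at ZT16 and 1.93 at ZT20. Col6a2 lay between 0.875 FPKM (ZT0) and 1.29 FPKM (ZT20) and Col6a3 between 0.972 FPKM (ZT12) and 2.12 FPKM (ZT20). All 3 were highest at ZT20 and none passed (limma adjusted p = 0.534, 0.678 and 0.2701). The ratio of Col6a1 to Col6a2 stayed from 1.43 to 1.72 (mean log2 ratio 0.61 ± 0.09, SD, n = 6), and that of Col6a6 to Col6a1 lay between 1.62 at ZT16 and 5.95 at ZT4. A transcript of Col6a3 with a retained intron held 38.4% of its FPKM. Col6a4 and Col6a5, which neighbour Col6a6 on chromosome 9, had means of 0.0373 and 0.0192 FPKM.

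The multiplexins are basement membrane collagens, and the end of the Col18a1 protein is released as endostatin, an inhibitor of vessel growth. Col18a1 stood at 23.1 FPKM at ZT0, 18.6 at ZT4, 18.5 at ZT8, 15.6 at ZT12, 19.02 at ZT16 and 25.3 at ZT20. It was lowest at ZT12 and highest at ZT20 and ZT0, with an amplitude of 0.28 ± 0.07 and its peak at ZT22.1 (limma adjusted p = 0.178, unadjusted p = 0.0135, exact permutation p = 0.1). The gene overlaps the folate transporter gene Slc19a1 on the opposite strand, which had a mean of 44.7 FPKM, the kit was strand-specific per the labels, and whether strand was used in the estimates is not given in the sources used here. Col15a1 stood at 3.57 FPKM at ZT0, 3.76 at ZT4, 2.72 at ZT8, 2.72 at ZT12, 1.78 at ZT16 and 2.62 at ZT20. It was highest at ZT4 and lowest at ZT16, with an amplitude of 0.32 ± 0.08 and its peak at ZT3.11 (limma adjusted p = 0.203, unadjusted p = 0.02102). A transcript of 1755 bases held 64.6% of Col15a1 and went from 1.07 FPKM at ZT16 to 2.46 FPKM at ZT0, while the long one of 5172 bases lay between 0.695 FPKM at ZT12 and 1.04 FPKM at ZT4. The unadjusted p of Col18a1 was 0.0743 without the ZT12 library and 0.0686 without the ZT20 library. That of Col15a1 was 0.0604, 0.0903 and 0.129 without the ZT0, ZT4 and ZT16 libraries.

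Col14a1, a collagen that sits on the surface of fibrils (a FACIT), stood at 3.42 FPKM at ZT0, 4.72 at ZT4, 2.94 at ZT8, 2.84 at ZT12, 4.86 at ZT16 and 6.63 at ZT20. It was highest at ZT20 and lowest at ZT12, with an amplitude of 0.36 ± 0.15 (limma adjusted p = 0.359). Without the ZT0 library its unadjusted p was 0.00103, and without ZT4 0.0402. Among its coding transcripts, 3 have nearly equal length, 1 of 6447 bases and 2 of 6457 bases. The one of 6447 bases was between 1.54 and 3.07 FPKM in 5 libraries and at 0.00482 FPKM at ZT8, where the first of 6457 bases (ENSMUST00000023053) was at 1.52 FPKM, against at most 0.000988 FPKM elsewhere. The other of 6457 bases (ENSMUST00000110217) was at most 0.000179 FPKM in any library. Col26a1, a matrix protein with short collagen repeats, stood at 2.25 FPKM at ZT0, 1.44 at ZT4, 1.57 at ZT8, 1.61 at ZT12, 1.22 at ZT16 and 1.59 at ZT20. It was highest at ZT0 and did not pass (limma adjusted p = 0.655). Fibroblasts make much of the interstitial collagen. The list of fibroblast and mesangial markers had 6 of 8 genes tested and a summed level from 46.7 FPKM at ZT0 to 65.6 FPKM at ZT20. Smooth muscle markers summed to 16.9 FPKM at ZT12 and 33.3 FPKM at ZT20, so the ZT20 library was highest for the sums of both lists. It was also highest for Col1a1, Col1a2, Col3a1, Col6a1, Col6a2, Col6a3 and Col14a1. Of the tested markers, 4 of 6 in the fibroblast and mesangial list and 3 of 4 in the smooth muscle list were highest at ZT20. Vim was highest at ZT16, while Itga8 and Mylk were highest at ZT4 and lowest at ZT12. No marker of these lists was at 0 in all libraries, and their part in the levels of these 7 collagen genes was not tested.

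**Figure D5:**
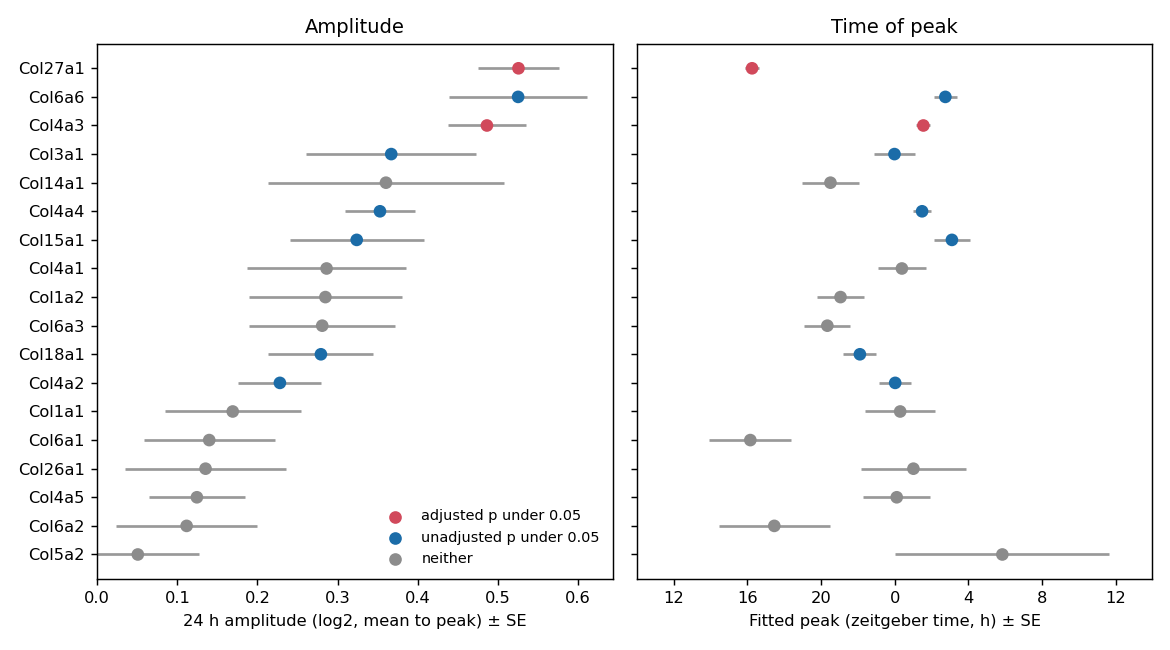
Fitted 24 h amplitude on the log2 scale (left) and fitted peak time (right) with SE for the 18 collagen genes tested, coloured by limma p (6 libraries). Col27a1 at ZT16.3 and Col4a3 at ZT1.56 pass the adjusted threshold, and Col6a1 and Col6a2 are the other genes with a fitted peak near ZT16 to ZT18.

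The remaining collagens were scarce. Below the threshold of 1 FPKM lay 26 genes, of which 12 had a mean of at least 0.1 FPKM, 9 a mean between 0.01 and 0.1 FPKM, and 5 a lower one. Col16a1, a fibril-surface collagen, was just under the threshold with a mean of 0.977 FPKM, and Col6a2 just above it with 1.03 FPKM. Coding transcripts held 30.6% of Col16a1. Col8a1, a short-chain collagen of vessel walls, lay between 0.337 FPKM (ZT12) and 1.07 FPKM (ZT20), and Col12a1, another FACIT, between 0.397 FPKM (ZT12) and 0.866 FPKM (ZT20). Col7a1, of the anchoring fibrils of skin, had a mean of 0.369 FPKM, with 27.2% from coding transcripts. The transmembrane collagen genes Col23a1, Col13a1, Col17a1 and Col25a1 had means between 0.01702 and 0.275 FPKM. Col20a1 and Col19a1 had means of 0.2499 and 0.206 FPKM. Col9a3, Col9a2, Col9a1, Col28a1 and Col8a2 were all under 0.1 FPKM on average, and Col10a1, of growth plate cartilage, and Col22a1 were listed at 0 in all 6 libraries. With no filter on low values, 42 collagen genes could be fitted and 10 had an unadjusted p under 0.05, among them Col8a1, Col5a3 and Col13a1, against 12.7% of the 25013 genes in that fit.

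The companion genes of collagen were read from lists of its enzymes, receptors and partners, and none of their genes passed at adjusted p under 0.05 (limma), while 36 of all 12709 did. Of 28 genes for synthesis and folding, 21 were tested and 6 had an unadjusted p under 0.05 (28.6%, against 19.1% of all genes tested). Plod2, a lysyl hydroxylase that prepares collagen for crosslinks, lay between 13.1 FPKM (ZT12) and 25.8 FPKM (ZT0) (amplitude 0.42 ± 0.07, peak ZT23.8, adjusted p = 0.124 by limma). P3h2, a prolyl 3-hydroxylase that acts on type IV collagen, lay between 31.4 FPKM (ZT4) and 45.9 FPKM (ZT12) (peak ZT12.1), and Plod1 between 7.98 FPKM (ZT8) and 10.6 FPKM (ZT20). The other 3 of the 6, named after their values were seen, were highest at ZT16. Serpinh1, the collagen chaperone HSP47, lay between 20.1 FPKM (ZT0) and 46.4 FPKM (ZT16), and the prolyl 4-hydroxylase subunits P4ha1 and P4ha2 were at 33.9 and 12.2 FPKM at ZT16. The most abundant members, P4hb and Ppib, stayed between 152 and 185 and between 142 and 169.8 FPKM.

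Of 7 crosslinking genes 4 were tested, and 3 (75%) had an unadjusted p under 0.05, against 19.1% of all genes tested. All 4 were lowest at ZT12, against 11.4% of all genes tested. Tgm2, a transglutaminase, lay between 47.7 FPKM (ZT12) and 63.1 FPKM (ZT0) (amplitude 0.20 ± 0.04), and Pxdn, the peroxidase that crosslinks type IV collagen, between 2.69 FPKM (ZT12) and 4.67 FPKM (ZT0) (peak ZT1.404). Loxl1, a lysyl oxidase, lay between 1.15 FPKM (ZT12) and 3.64 FPKM (ZT20). Their limma adjusted p lay between 0.173 and 0.2402. Of 19 other basement membrane genes 16 were tested and 7 (43.8%) had an unadjusted p under 0.05, against 19.1% of all genes tested. The smallest were those of Hspg2 (perlecan, between 4.87 FPKM (ZT8) and 8.98 FPKM (ZT20), limma adjusted p = 0.0729), Nid2 (nidogen 2, between 1.75 FPKM (ZT12) and 3.94 FPKM (ZT20), limma adjusted p = 0.107) and Npnt (nephronectin, between 27.7 FPKM (ZT8) and 47.5 FPKM (ZT20), limma adjusted p = 0.109). Their fitted peaks, ZT20.7, ZT21.9 and ZT21.2, all lay before lights on, and their difference from those of the type IV chains was not tested. Of the other 4, named after their values were seen except Sparc, Sparc and Nid1 peaked at ZT19.5 and ZT19.6, while Lama1 (laminin α1) and Fras1 were highest at ZT4 with fitted peaks at ZT5.51 and ZT5.72. Sparc, which binds collagen, lay between 27.8 FPKM (ZT12) and 48.3 FPKM (ZT20).

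Breakdown genes gave 0 of 5 tested (of 14 listed) at an unadjusted limma p under 0.05, and fibril partners 0 of 5 (of 12 listed). The share over all genes tested was 19.1%. Timp3, a matrix-bound inhibitor of metalloproteinases, was the most abundant of the breakdown list and lay between 630.1 FPKM (ZT20) and 793 FPKM (ZT4). Among the fibril partners Bgn (biglycan) was highest and lay between 57.97 FPKM (ZT0) and 79.6 FPKM (ZT20). Collagen receptors gave 1 of 5 (20%, of 10 listed), near the share over all genes tested. This was Adgrg1, which lay between 61.1 FPKM (ZT16) and 80.6 FPKM (ZT0) (limma adjusted p = 0.216). The integrin subunit Itgb1 lay between 92.8 FPKM (ZT0) and 115 FPKM (ZT4) and Ddr1, a receptor kinase for collagen, between 25.6 FPKM (ZT16) and 32.9 FPKM (ZT8). Of the genes of TGF-beta signalling and matrix control, 10 of the 13 in the table were tested. An unadjusted limma p under 0.05 was found for 2 (20%), again near the share over all genes tested. They were Ctgf (level between 8.81 FPKM (ZT0) and 27.2 FPKM (ZT16), amplitude 0.78 ± 0.13, peak ZT16.3, limma adjusted p = 0.118) and Tgfbr2 (level between 15.1 FPKM (ZT16) and 20.3 FPKM (ZT4), amplitude 0.18 ± 0.04, peak ZT3.72, limma adjusted p = 0.185). As a reference from the clock, Nr1d1 had an amplitude of 2.27 ± 0.13 and Dbp of 2.30 ± 0.15 in the same fit, both above those of Col4a3 and Col27a1.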

How the data were processed

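RNA of 6 kidney samples was sequenced, 1 library per time. Per the labels, Trizol and a column kit gave the RNA, and a strand-specific Agilent kit the libraries. Per the submitters' processing notes, bcl2fastq 2.20 was used, and mm9 is the build named. Which aligner and estimator made the values is not given in the sources used here. Per the file headers, FPKM per Ensembl transcript were deposited, with each transcript length in bases. Of 127971 transcripts matched to GENCODE M21, 98.6% lay inside the locus given in the table, so GRCm38 positions are used. FPKM hold no counts, so depth is unknown and counting error has no interval.

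FPKM were summed per symbol (51803 symbols). The 12709 symbols whose mean reached 1 FPKM were fitted on log2(FPKM + 1), which understates changes of low genes, with a cosine and a sine of 24 h (limma 3.58.1, R 4.3.3, eBayes with trend, 3 residual degrees of freedom, Benjamini-Hochberg). The residual spread holds differences between samples and departures from a cosine together. Exact permutation p-values use the 60 distinct circular orders of the libraries. The fit was tested on simulated data, in 20 runs with 200 planted rhythms each. At adjusted p under 0.05 (limma) it found 49.05% of those with amplitude 0.5 and 85.45% of those with amplitude 1. A mean of 5.5 genes without a planted rhythm were called per run. Rhythms of small amplitude can therefore be missed. Tables and plots used Python 3.11.15, pandas 2.3.3, numpy 2.4.6 and matplotlib 3.10.9. The members and lists were chosen with earlier results of these data known. Values in every library are given for type IV genes, fibrillar genes of at least 1 FPKM, and genes of other classes with an unadjusted p under 0.05 or among the 6 highest. In companion lists up to 3 genes with the smallest p and 2 with the highest mean are named. The ratios of Col27a1 to Col4a3 and of Col6a6 to Col6a1 were added after values were seen. Alternatives were pseudocount 0.1, no filter, a minimum mean of 5 FPKM, size factors, quantile normalization, no trend, ordinary least squares, the most abundant transcript and the omission of each time.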

Additional observations from a re-analysis of the deposited data

How the results depend on the processing

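No paired analysis was possible because each time has 1 library and the labels give no replicate numbers. The count of collagen genes at unadjusted p under 0.05 (8 as reported) was 5 with a minimum mean of 5 FPKM, where 6 were tested, 5 by ordinary least squares, and between 5 and 10 when a library was left out, with 5 without ZT12. The share over all genes tested (19.1% as reported) was 21.1% of 8480 genes with a minimum mean of 5 FPKM and 13.1% by ordinary least squares. It lay between 9.1% (without ZT20) and 19.1% (without ZT4) when a library was left out, with 15.1% without ZT12. The count at adjusted p under 0.05 (2) was 0 with no filter, 0 without trend, 0 by ordinary least squares, 0 with the most abundant transcript and 0 without any 1 of the libraries. For all genes tested the adjusted count (36) was 0 with no filter, 7 without trend, 2 by ordinary least squares, 2 with the most abundant transcript and 0 to 3 when a library was left out, and the unadjusted count (2428) lay between 1157 (without ZT20) and 2432, with 1618 without ZT16. With fewer genes or libraries the adjustment and the residual degrees of freedom change by construction, and the cause was otherwise not tested. With pseudocount 0.1, a minimum of 5 FPKM, size factors and quantile normalization the 2 genes called at adjusted p under 0.05 were again Col4a3 and Col27a1. The unadjusted p of Col4a3, Col4a4, Col27a1 and Col6a6 was under 0.05 under each alternative in which they were tested. Over the 18 single genes, 227 of 255 recomputed amplitudes and permutation tests kept their direction and side of unadjusted p 0.05, 19 lost it, 8 gained it and 1 moved its peak by over 6 h (Col5a2 without ZT8, amplitude 0.04, in a range of 0.033 to 0.12 over the 6 omissions). With the most abundant transcript in place of the sum, the mean log2 ratio was 0.58 for Col4a1 to Col4a2, 3.34 for Col4a3 to Col4a5 and 0.91 for Col6a1 to Col6a2. The mean class sums were then 15.7 FPKM for fibrillar, 0.1299 for type VII, 3.38 for FACIT, 0.359 for transmembrane, 18.2 for multiplexin and 0.997 FPKM for the 2 unclassed genes, since fewer transcripts enter. With 1 library per time, a difference between times and a difference between samples cannot be told apart.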
